A study of Mus musculus with 12 samples.

Results

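Wild-type STAT3 cell line 2 was compared with 5 other mouse tumour-derived cell lines to describe which genes set this tumour line apart. Its members were the 2 replicate arrays that the labels assign to that line, out of 12 Illumina bead arrays of 6 lines. The other lines were wild-type lines 1 and 3, which carry wild-type STAT3, and lines 1, 2 and 3 with constitutively active STAT3 (called active lines here), each with 2 arrays. All lines were grown untreated in RPMI medium with foetal calf serum, and total RNA was labelled with biotin. The labels name neither the tissue of the tumours, nor the mouse strain, nor the driver of the tumours, and mammary gene lists were used because the study is known to concern mammary tumours. Each line stands for 1 tumour-derived culture, and nothing says that its 2 arrays came from separate cultures, so the spread between arrays may be technical.

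STAT3 is a transcription factor that receptors for cytokines and growth factors switch on, and its altered form is given as constitutively active in the labels. A carcinoma line keeps some features of the epithelial cell it came from, such as keratins, and lines from separate tumours often differ in growth factors, matrix genes and silenced genes even when the driver is shared. Mammary epithelium has a luminal layer, which makes milk and carries keratins 8 and 18, and a basal or myoepithelial layer, which contracts and carries keratin 14, p63 and smooth muscle actin.

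Signals are given on a log2 scale after background correction and quantile normalization, and a probe counted as detected where the deposited detection fraction was above 0.99. Of 46632 probes 13038 were detected on both arrays of at least 1 line, and they represent 7929 genes. The arrays of wild-type line 2 detected 12798 and 12499 probes, more than any other array (11002 to 12116), and their dimmest detected probes read 5.924 and 6.002 against 6.106 to 6.47 elsewhere. Genes counted as present in this line alone lie near that floor in part, and the share of such calls that comes from its lower floor was not tested. The 2 arrays of the line correlated at 0.995 across genes, and the line correlated with the others at 0.969 (active line 1), 0.962 (wild-type line 3), 0.959 (active line 2), 0.947 (active line 3) and 0.943 (wild-type line 1), which are descriptions across genes that share the same arrays.

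The line was an epithelial one by its markers. Krt8 and Krt18, the luminal keratin genes, read 13.77 and 13.81 and 13.53 and 13.62 on its arrays, within the range of the other line means for each gene. Epcam of the same marker list passed the filter in no line. Krt14, a basal keratin gene, read 12.21 and 12.29, between the 7.51 of wild-type line 1 and the 12.69 of active line 3, and Krt5 did not pass the filter. Stat3 itself read 12.79 and 12.81 against line means of 12.42, 12.76, 12.74, 12.27 and 11.50 (wild-type lines 1 and 3 and active lines 1, 2 and 3, the order used below), and the difference of 0.46 ± 0.48 (SE) did not pass (limma adjusted p = 0.936). The 2 kept probes of Stat3 gave 0.46 and 0.61.

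In the test across all genes 35 passed, and most were genes detected in no other line. The test set the line mean against the means of the 5 others by limma, with Benjamini-Hochberg adjustment at 0.05, so that 1 line was assumed to vary as the 5 others do. An exact permutation of 1 line against 5 cannot go below p = 0.167. The test called 34 genes higher (0.429% of those tested) and 1 lower (0.0126%). Of the 35, 33 had entered the table only because they were detected in wild-type line 2 itself, where a difference is built in, and the other 2 were Notch4 and Nrarp. When genes were filtered on the 5 other lines alone, 7728 were tested and 0 passed by limma (smallest adjusted p 0.192), with 374 at an unadjusted p under 0.05, against 482 in the full table. With the deposited log2 values 19 genes were called higher and 1 lower. Leaving out wild-type line 3 gave 21 and 0, active line 2 gave 22 and 1, and active line 3 gave 48 and 2. With the spread between the 2 arrays of a line as the residual, which leaves out the spread between lines, 1585 genes were higher (20.0%) and 1581 lower (19.9%). A wider description was therefore made without a test. A gene was called set apart when both arrays of the line lay beyond all 10 other arrays and the line mean lay over 1 log2 unit, that is over 2-fold, beyond the nearest other line. By that rule 79 genes were set apart higher (0.996%) and 16 lower (0.202%). Without the genes that had entered through the line alone, 28 of 7728 were set apart higher (0.362%). Of the 79, 46 were detected on none of the other 10 arrays, 21 on 1 to 9 and 12 on all 10. Active line 3 was the next line below in 32 of the 79, active line 1 in 21 and active line 2 in 15. Without active line 3 the counts were 128 and 25, and with the deposited log2 values they were 27 and 4.

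**Figure D1:**
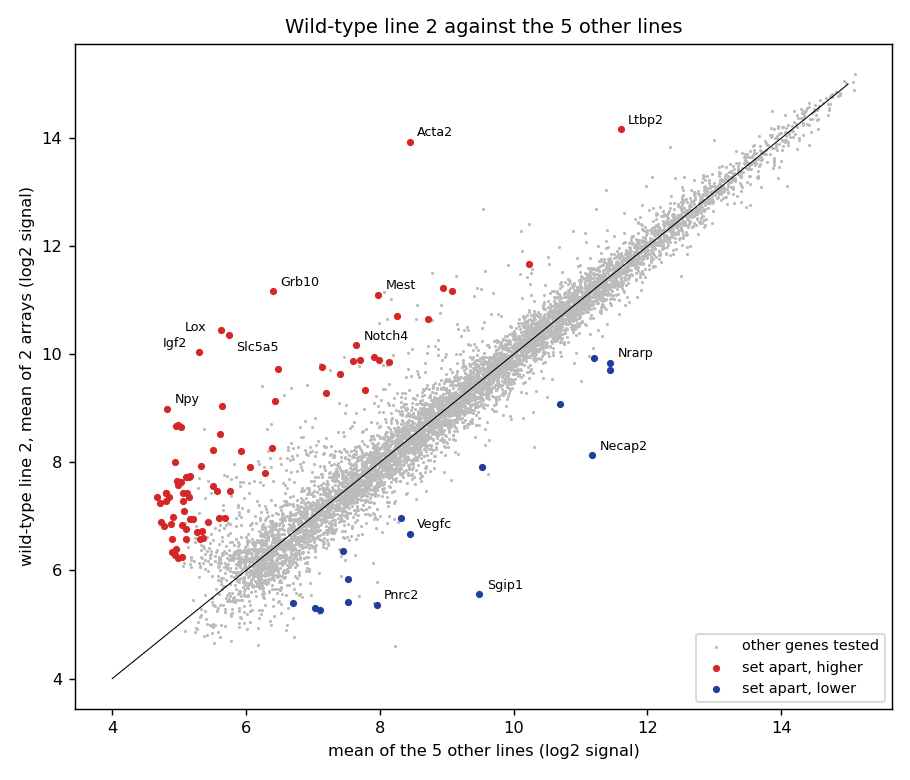
Mean log2 signal of wild-type line 2 (2 arrays, vertical axis) against the mean of the 5 other lines (horizontal axis) for 7929 genes, with the line of equality. The 79 genes set apart higher lie mostly at the left, where the other lines are near background, and the 16 set apart lower spread over the scale.

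Insulin-like growth factor genes led the line, and Igf2 had the widest gap to the next line of all genes tested. Igf2, a fetal growth factor that signals through the IGF1 receptor and is expressed from the paternal allele, read 9.96 and 10.12 on the 2 arrays against line means of 5.01, 5.19, 5.65, 5.07 and 5.60. Its probe was detected on none of the other 10 arrays, and the line was at least 14.03-fold brighter (log2 difference 4.74 ± 0.30 SE, limma adjusted p = 0.00267). Igf1, the related growth factor that adult stroma and liver secrete, read 8.64 and 8.73 against 5.01, 4.86, 5.09, 4.94 and 5.01, at least 5.50-fold brighter (adjusted p = 0.00105 by limma). Both ligands were thus far above a dim and even level in the 5 other lines. Both entered the table only through wild-type line 2, where a difference is built in, so their p-values support nothing further. Grb10, an adaptor protein that binds the insulin and IGF1 receptors and restrains their signalling, read 11.20 and 11.14 against 5.38, 7.10, 7.69, 5.95 and 5.91. The line stood 11.1-fold above the next, active line 1, but the others were spread widely and the difference of 4.76 ± 0.86 did not pass (limma adjusted p = 0.196). The second kept probe of Grb10 gave 1.26. Igfbp7, a secreted protein that binds IGFs weakly, read 10.94 and 11.09 against 5.67 to 10.56. The receptors did not stand out: Igf1r read 8.77 and 9.09 against 8.72 to 10.06, and Igf2r, which clears IGF2 from the cell surface, read 11.41 and 11.30 against 10.17 to 11.77.

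Among the 11 genes tested in the list of IGF ligands, binding proteins and adaptors, 5 had both arrays of the line above all 10 others and 0 had both below. Over all genes tested these shares were 7.95% (630 genes) and 7.82% (620), and without the genes that entered through wild-type line 2 alone they were 6.74% and 8.02%. Of the 5, Igf2 and Igf1 were among the genes that entered so, which left 3 of 9. The list median was 0.00, with 6 differences above 0 and 5 below, the lowest at -1.16. The scaling mattered for the share above over all genes: with median scaling in place of quantile normalization the median of all genes moved from 0.00 to -0.27 and 179 genes lay above and 646 below. The IGF list held 4 above under median scaling.

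Beside Igf2 and Igf1, the largest differences among the genes that passed were those of a transporter, a neuropeptide and 2 secreted or surface proteins of stromal and immune cells. Slc5a5, the sodium iodide symporter of thyroid and lactating mammary gland, read 10.20 and 10.51 against 6.08, 5.57, 6.03, 5.44 and 5.59, at least 17.5-fold brighter (adjusted p = 0.00267 by limma). Npy, which encodes neuropeptide Y, read 8.79 and 9.19 against 4.70, 4.81, 4.78, 5.03 and 4.78, at least 6.78-fold brighter (adjusted p = 0.00105 by limma). No array of another line came near either gene. Thy1, a surface glycoprotein of fibroblasts, T cells and neurons, read 8.52 and 8.83 against 4.76, 4.89, 4.97, 5.34 and 4.82, at least 5.45-fold brighter (adjusted p = 0.00283 by limma). Ptx3, a soluble pattern recognition protein, read 8.49 and 8.83 against 4.62, 5.27, 5.48, 4.67 and 5.09, at least 5.39-fold brighter (adjusted p = 0.0148 by limma). Without wild-type line 3 or active line 2 its adjusted p reached 0.0576 by limma, and its second kept probe gave 1.88. Slc5a5 and Thy1 have 1 further probe each, neither of which passed the filter. The homeobox gene Dlx2 read 7.23 and 7.65 against 4.66 to 4.94, and Dnajc6, which encodes auxilin, a chaperone for clathrin uncoating, read 7.65 and 7.50 against 4.85 to 5.14. Among the other genes that passed were G0s2, an inhibitor of triglyceride breakdown, with 7.65 and 7.81 against 4.94 to 5.34, and Rgs4, a regulator of G protein signalling, with 7.66 and 7.59 against 4.84 to 5.54, whose call was lost without any 1 of the other lines but active line 3 (adjusted p up to 0.11 by limma). Rflna, which encodes the filamin-binding protein refilin A, read 7.38 and 7.48 against 4.64 to 5.01 and passed. All the genes named here from Slc5a5 to Rflna entered through wild-type line 2 alone, where a difference is built in. Their p-values therefore support nothing further.

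**Figure D2:**
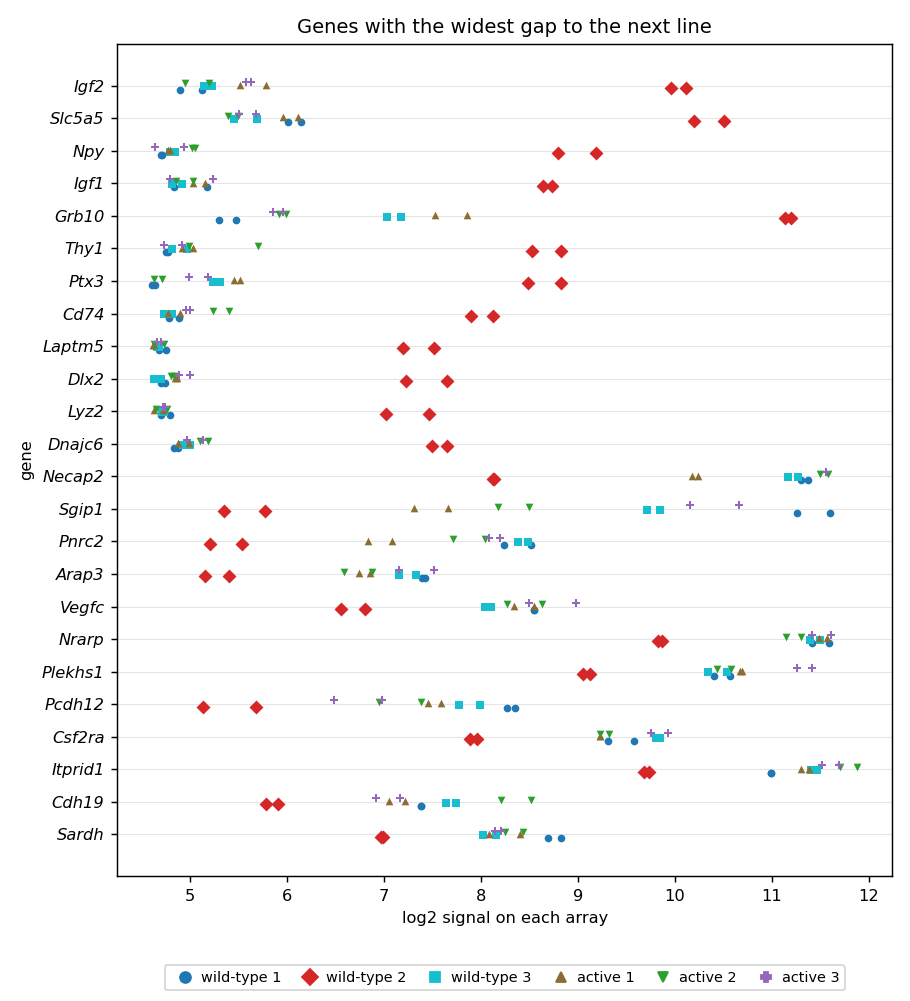
Log2 signal on each of the 12 arrays (horizontal axis) for the 12 genes with the widest gap to the next line above (Igf2 to Dnajc6) and the 12 with the widest gap below (Necap2 to Sardh). Red diamonds are the 2 arrays of wild-type line 2, the other symbols are the 2 arrays of each other line, and the diamonds lie outside all other symbols in every row.

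Some genes of MHC class II presentation and of macrophages, all dim, were detected in wild-type line 2 and on few or none of the other arrays. This list was written after its leading genes had been seen, so its counts describe and support nothing further. Cd74, the invariant chain that escorts class II molecules, read 8.13 and 7.90 against 4.83, 4.77, 4.83, 5.32 and 4.97, at least 3.44-fold brighter (limma adjusted p = 0.00546). The class II chains H2-Ea and H2-Ab1 read 7.52 and 7.19, and 7.04 and 6.60, against at most 4.94 in the other line means. Laptm5, a lysosomal protein of blood cells, read 7.52 and 7.20 against 4.62 to 4.71. Lyz2, the lysozyme gene of macrophages, read 7.46 and 7.02 against 4.67 to 4.75, and C1qb, a chain of complement C1q, read 6.82 and 6.36 against 4.84 to 4.92. Each of these 6 genes read higher on the first array of the line than on the second. Apoc1, an apolipoprotein gene of macrophages and liver, read 7.44 and 7.43 against 4.99 to 5.21. These 7 genes passed the test (limma adjusted p from 0.00211 for Laptm5 to 0.00557 for C1qb), all of them through the line's own detection, and C1qb and H2-Ab1 lost the call with the deposited log2 values (limma adjusted p = 0.145 and 0.0608).

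Of the 28 genes of that list on the array, 10 were tested and all 10 had both arrays above the others, and 9 of the 10 entered through wild-type line 2 alone. On both arrays of the line 10 of the 28 were detected, against 0 or 1 in each other line. The summed linear signal of all 28 was 2082 against 831 to 911. Undetected genes enter such sums at background level, so the sums of the other lines are largely background. Of the 28, 15 were detected on no array, among them Ptprc, which encodes the leukocyte surface protein CD45, and Adgre1, which encodes the macrophage marker F4/80. The class II genes were split: H2-Aa and Ciita were also detected on no array, with means of 4.62 and 5.30 in the line. H2-DMa averaged 5.82 in the line, within the other line means of 5.74 to 6.41. Of the 16 genes of the general leukocyte list 3 were detected in the line and 1 in each other line, with a summed signal of 6056 against 3657 to 7916 elsewhere. Cd14, which was detected on every array, makes up most of these sums. Without it the sum was 723 in the line against 409 to 418 in the others, where 0 of the 15 remaining genes were detected on both arrays. The other genes of the leukocyte list detected in the line were Lyz2 and Laptm5, which are also in the list above. Of 16 fibroblast markers 3 were detected in the line against 1 to 4 elsewhere, with a summed signal of 1099 against 604 to 1187, and Col1a1 was undetected with 5.19 and 4.89. In bulk RNA a few cells with much of a transcript and many cells with little of it cannot be told apart. The part of other cell types in these signals was not tested.

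**Figure D3:**
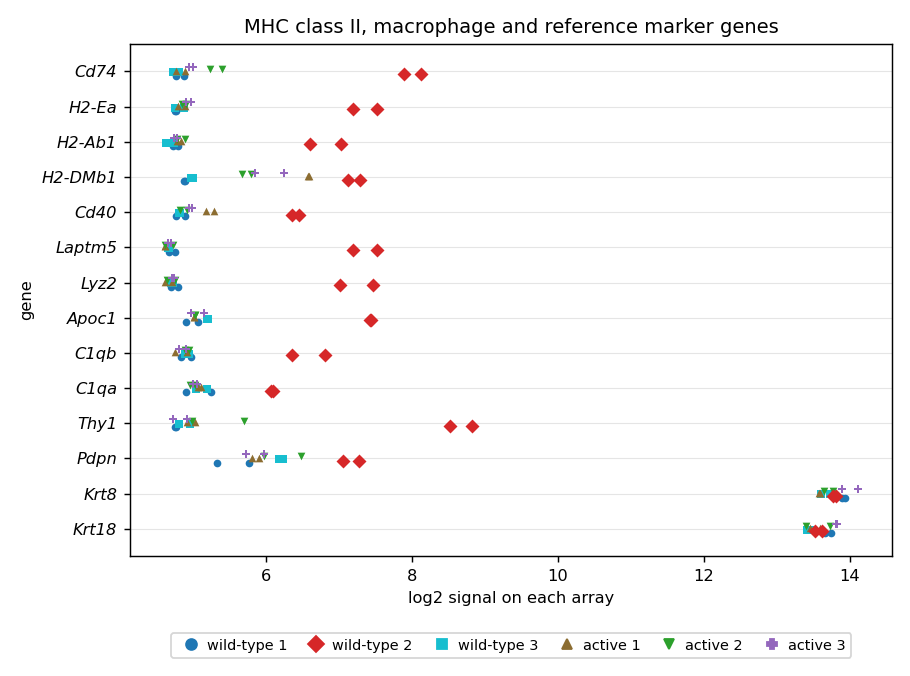
Log2 signal on each array (horizontal axis) for MHC class II and macrophage genes, the stromal genes Thy1 and Pdpn, and Krt8 and Krt18 as epithelial reference genes. In the upper 12 genes the red diamonds of wild-type line 2 lie to the right of all other arrays, while the keratins overlap between lines.

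Notch4 and Nrarp were the only called genes that did not enter through the line's own detection. Notch4, a Notch receptor known from endothelium and from mouse mammary tumours with proviral insertions at its locus, read 10.08 and 10.26 against 7.37, 7.63, 7.67, 7.66 and 7.93. The line was 4.72-fold above the next line, and the log2 difference of 2.52 ± 0.22 passed (limma adjusted p = 0.00881). The call was lost when wild-type line 3 (limma adjusted p = 0.0555) or active line 2 (0.0506) was left out. Its second probe did not pass the filter. Nrarp, a target gene of Notch that feeds back on it, read 9.86 and 9.83 against 11.51, 11.45, 11.53, 11.22 and 11.52, and fell by 1.60 ± 0.17 (limma adjusted p = 0.0211). That call was lost without wild-type line 1, wild-type line 3 or active line 1 (adjusted p up to 0.11 by limma). The filter on the 5 other lines alone left both genes uncalled (adjusted p = 0.192 and 0.312 by limma). The receptor gene was thus at its highest and this feedback gene at its lowest in the same line. Notch1 read 8.96 and 9.04 against 8.03 to 8.70. The targets Hes1, with 11.59 and 11.49 against 11.60 to 11.80, and Hey1, with 11.88 and 11.95 against 10.44 to 12.44, differed by -0.17 and 0.18 and did not pass (limma adjusted p = 0.921 and 0.988). Of 11 Notch pathway genes tested, Notch4 and Notch1 had both arrays above all others and Nrarp below, beside 7.95% and 7.82% of all genes. With median scaling 1 of the 11 lay above and 2 below, beside 179 and 646 of all 7929.

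The promoters of 3 called genes are shown because letters of known motifs can be read in them beside the values. They are 300 bases each from RefSeq, build GRCm38.p6, 250 before the annotated start and 50 after, all on the plus strand, and are chosen from the genes described here. Capitals mark TGANTCA, the AP-1 type motif, which reads the same on both strands, and, in Mmp13 alone, TATAAA, the TATA box. Mmp13 lies at chr9:7272264-7272563, Notch4 at chr17:34564045-34564344 and Nrarp at chr2:25180508-25180807.
Mmp13: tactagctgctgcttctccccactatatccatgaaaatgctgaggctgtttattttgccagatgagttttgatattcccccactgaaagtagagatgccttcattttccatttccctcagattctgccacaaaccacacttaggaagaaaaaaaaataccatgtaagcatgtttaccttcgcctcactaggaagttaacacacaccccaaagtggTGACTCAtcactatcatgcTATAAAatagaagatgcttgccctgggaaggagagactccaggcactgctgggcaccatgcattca
Notch4: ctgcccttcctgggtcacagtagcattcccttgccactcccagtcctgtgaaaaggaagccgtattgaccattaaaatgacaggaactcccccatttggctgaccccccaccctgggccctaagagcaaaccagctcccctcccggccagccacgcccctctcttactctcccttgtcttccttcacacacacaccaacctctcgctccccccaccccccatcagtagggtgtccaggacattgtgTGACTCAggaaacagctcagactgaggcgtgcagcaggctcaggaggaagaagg
Nrarp: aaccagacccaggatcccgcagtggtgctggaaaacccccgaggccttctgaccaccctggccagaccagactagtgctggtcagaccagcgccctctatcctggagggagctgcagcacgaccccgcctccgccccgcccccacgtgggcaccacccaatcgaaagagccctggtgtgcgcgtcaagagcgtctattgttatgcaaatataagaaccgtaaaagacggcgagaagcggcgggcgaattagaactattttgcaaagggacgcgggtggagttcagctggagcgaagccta
Counted from the start, Mmp13 holds TGACTCA from -35 and TATAAA from -16, and Notch4 holds TGACTCA from -4. Nrarp holds no TGANTCA, and it also holds no TGGGAA in either direction, the core letters to which the Notch effector RBPJ binds. Mmp13 does hold TGGGAA, which is left in small letters there. Among 32851 promoters given by RefSeq, 7.81% hold TGANTCA, 13.6% TATAAA and 25.6% TGGGAA on either strand, and among the 8339 promoters of genes tested the shares are 5.08%, 7.34% and 22.9%. Of the 71 promoters of the set apart higher genes that were in the table (54 genes), 6 hold TGANTCA (8.45%), 6 TATAAA (8.45%) and 23 TGGGAA (32.4%). Of 11 promoters of set apart lower genes 0, 0 and 4 (36.4%) hold them. These are descriptions of the letters and not of binding.

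Part of the matrix-remodelling genes lay above the other lines. Of the 18 genes tested among matrix proteases, their inhibitors and crosslinking enzymes, 8 had both arrays above all 10 others and 0 below, beside the 7.95% and 7.82% of all genes, and the median log2 difference was 1.03 against 0.00 over all genes. Without the genes that entered through the line 7 of 16 lay above, beside 6.74% of all genes. With median scaling 5 of the 18 did, beside 179 of all 7929. With 1 other line left out 8 to 12 did, beside 679 to 1053 of all genes. Of the 18, 4 had a difference below 0, down to -1.16, and Mmp13 was the one that passed the test. Lox, which crosslinks collagen and elastin, read 10.38 and 10.54 against 4.79, 5.07, 4.92, 5.09 and 8.24. It was detected only in active line 3 among the others, 4.66-fold below, and the difference of 4.84 ± 1.31 did not pass (limma adjusted p = 0.551). Its relative Loxl1 read 6.90 and 6.85 against 4.69, 4.87, 4.70, 4.86 and 6.35, with the same line next. Mmp13, collagenase 3, read 7.90 and 7.42 against 4.84, 4.83, 4.85, 4.83 and 5.50, at least 2.70-fold brighter (adjusted p = 0.023 by limma). The call was lost without any 1 of the other lines but active line 3 (adjusted p up to 0.101 by limma), and its second probe did not pass the filter. Mmp13 also entered through wild-type line 2 alone, where a difference is built in. Mmp9, gelatinase B, read 9.03 and 9.24 against 5.47, 5.75, 7.42, 5.80 and 7.69 (limma adjusted p = 0.748). Timp1, an inhibitor of these proteases and a STAT3 target, read 11.36 and 11.55 against 5.76, 10.72, 9.60, 10.79 and 8.84. Wild-type line 1 was the lowest for Lox, Mmp9 and Timp1 and active line 3 the highest of the others for Lox and Mmp9. Timp2, Mmp2 and Mmp14 had both arrays above all others by smaller distances, with differences of 1.38, 1.21 and 0.59, and Htra1, a secreted serine protease, read 10.66 and 10.66, below the 11.75 of active line 3.

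Further secreted genes lay above the other lines beside these. Ltbp2, a matrix protein related to the binding proteins of latent TGF-beta, read 14.10 and 14.24 against 9.17, 11.97, 12.36, 11.88 and 12.62, a 2.93-fold distance to the next line, while its second kept probe gave 0.50. The matrix genes Fbln2, at 8.78 and 8.62 against 4.68 to 8.17, and Tnc, at 11.13 and 11.30 against 6.66 to 10.58, had both arrays above all others. In the list of basement membrane and matrix genes 4 of 14 tested did so and 1 lay below, beside 7.95% and 7.82% of all genes. Without the genes that entered through the line 3 of 12 matrix genes lay above, beside 6.74% of all genes. Of the 12 chemokine and cytokine genes tested 5 lay above and 0 below. Cxcl12, which attracts cells that bear CXCR4, read 10.60 and 10.81 against 7.18, 7.69, 9.19, 7.65 and 9.55, and Cxcr4 itself read 9.01 and 8.86 against 7.28 to 8.63. Csf1, the growth factor of macrophages, read 8.81 and 9.03 against 7.26 to 8.33. None of these genes passed the test. With median scaling 2 of the 12 chemokine genes and 1 of the 14 matrix genes lay above, beside 179 of all 7929.

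**Figure D4:**
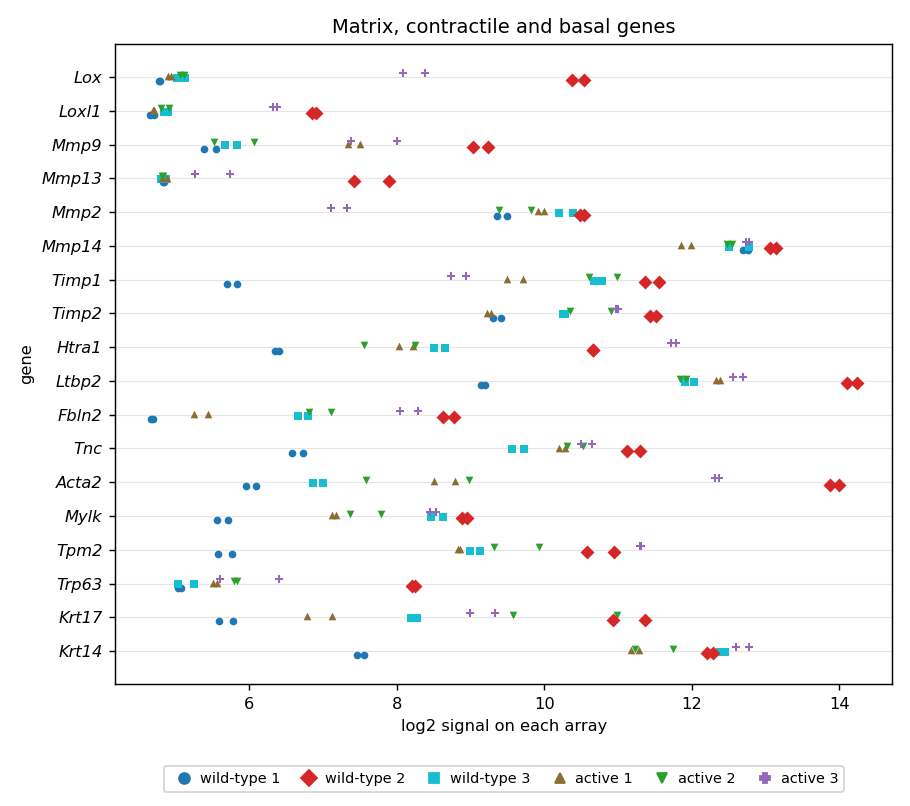
Log2 signal on each array (horizontal axis) for matrix, contractile and basal genes. Wild-type line 2 (red diamonds) is the highest line for Lox, Mmp9, Mmp13, Ltbp2, Acta2 and Trp63, while active line 3 is above it for Htra1 and Tpm2 and wild-type line 1 is far below the rest in many of the genes.

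Smooth muscle and basal genes were split. Acta2, smooth muscle alpha-actin, read 13.88 and 13.99 against 6.03, 6.93, 8.65, 8.28 and 12.34, with a difference of 5.49 ± 2.16 (SE) that did not pass (limma adjusted p = 0.801). Active line 3 came within 3.02-fold of the line, and the 3 kept probes gave differences between 2.65 and 5.49. Mylk, myosin light chain kinase, read 8.88 and 8.95 against 5.64 to 8.55, and Tpm2, a tropomyosin, read 10.58 and 10.94, below the 11.30 of active line 3. The actin-binding genes Flna, Cnn2 and Smtn had both arrays below all others, with differences of -0.27, -0.44 and -0.53. The list of 14 tested contractile genes thus held 3 above and 3 below, beside 7.95% and 7.82% of all genes, and a median of -0.15. Trp63, the basal transcription factor p63, read 8.21 and 8.24 against 5.06, 5.14, 5.54, 5.82 and 6.0 (limma adjusted p = 0.0787). It was detected on both arrays of the line and on 1 of the 10 others. Krt17 read 10.93 and 11.37 against 5.69 to 10.28, and 1 array of active line 2, at 10.99, lay between its 2 arrays. Of the 15 basal and myoepithelial markers tested, Trp63 and Egfr had both arrays above all others and 0 had both below. Trp63 entered through the line alone, and without it 1 of 14 lay above, beside 6.74% of all genes. With median scaling 1 of the 15 lay above and 1 below, beside 179 and 646 of all 7929.

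Genes of oxidative and heavy metal defence lay above the other lines in part. Hmox1, which breaks down haem, read 11.18 and 11.29 against 9.41, 8.32, 9.52, 8.81 and 8.65, 3.27-fold above the next line (limma adjusted p = 0.292). The metallothionein genes Mt1 and Mt2, which bind metal ions, read 13.87 and 13.79 against 10.55 to 13.10, and 7.61 and 8.13 against 6.73 to 6.95. Of 29 redox genes tested 6 lay above and 0 below, beside 7.95% and 7.82% of all genes. With median scaling 2 of the 29 lay above, beside 179 of all 7929. Of 17 genes of p53 and its targets 3 lay above, and without the genes that entered through the line it was 1 of 15, beside 6.74% of all genes. The 3 include Fas, a death receptor gene, at 7.43 and 7.53 against 5.14 to 6.35, and Eda2r, at 7.97 and 7.90 against 4.87 to 6.26.

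Some genes of DNA replication and of sterol synthesis lay below the other lines, at small distances. Of 34 DNA replication genes tested 7 had both arrays below all others and 0 above, beside the 7.82% and 7.95% of all genes, with a list median of -0.16. The 7 were Gins4, Rpa2, E2f1, Mcm10, Rfc2, Cdc45 and Gins2, and their differences ran from -0.16 (Gins4) to -0.68 (Gins2). None passed the test. With 1 other line left out 7 to 10 lay below, beside 707 to 1110 of all genes. With median scaling 8 did, beside 646 of all 7929. Without active line 3, 5 of the list lay above and 7 below, beside 1053 and 1110 of all 7826 genes then tested. Of 27 genes of cholesterol and fatty acid synthesis 4 lay below, Ebp, Cyp51, Hmgcs1 and Mvd, and 0 above. Of 20 cell division genes 0 lay below and Mad2l1 lay above. Of 21 STAT3 target genes Timp1 and Fos lay above and Ccnd1, Myc and Bcl2l1 below, with a list median of 0.00.

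**Figure D5:**
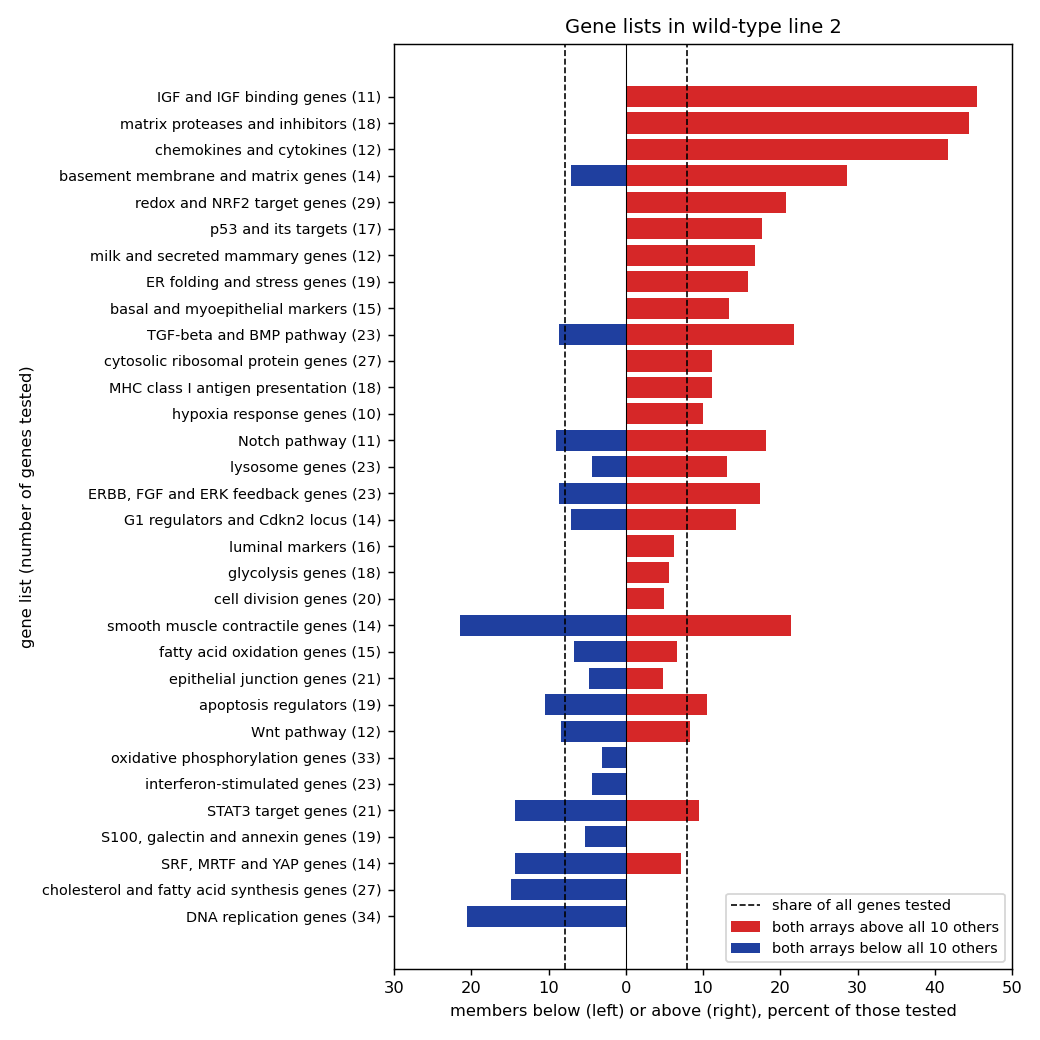
For each gene list with at least 10 genes tested, the percent of members with both arrays of wild-type line 2 above (red, right) or below (blue, left) all 10 other arrays. Dashed lines mark the shares over all 7929 genes, 7.95% above and 7.82% below. Of the lists drawn IGF genes, matrix proteases and chemokines reach furthest above. The bars and shares count genes that entered through wild-type line 2 alone, where a difference is built in. Without such genes 3 of 9 IGF genes, 7 of 16 matrix proteases and 5 of 12 chemokines lay above, beside 6.74% of all genes. The lists of MHC class II and macrophage genes and of imprinted genes, written after their values were seen, are left out.

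Among genes lower in the line, the widest gap was that of Necap2. Necap2, which takes part in clathrin-mediated endocytosis, read 8.12 and 8.14 against 11.34, 11.22, 10.21, 11.54 and 11.56, 4.23-fold below the next line (limma adjusted p = 0.154). Sgip1, another endocytic adaptor gene, was undetected at 5.77 and 5.35 against 11.43, 9.78, 7.49, 8.34 and 10.41, at least 11.5-fold dimmer than the mean of the others (limma adjusted p = 0.763), and 5 further probes of it did not pass the filter. Pnrc2, a nuclear receptor coactivator with a part in mRNA decay, was undetected at 5.53 and 5.21 against 8.38, 8.43, 6.96, 7.87 and 8.13, at least 3.98-fold dimmer. These 3 genes were detected on all 10 arrays of the other lines. Vegfc, a growth factor of lymphatic vessels, read 6.80 and 6.56 against 8.07 to 8.74 (limma adjusted p = 0.0753). Csf2ra, a receptor chain for GM-CSF, read 7.95 and 7.89 against 9.23 to 9.84, and Plekhs1 and Itprid1 read 9.12 and 9.06, and 9.68 and 9.73, against at least 10.44 and 10.99.

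Detection calls do not use the size of the difference. In 119 genes a probe was detected on both arrays of the line and no probe of the gene on any other array, and in 8 genes no probe was detected in the line while one was detected on all 10 others. The brightest of the 119 were Slc5a5, Igf2, Npy, Igf1, Thy1, Ptx3 and Cd74, and only 46 of the 119 were also set apart. Part of the 119 lay near the detection floor, which was lower on the arrays of this line than elsewhere. Calml3, one of them, read 6.03 and 6.37, while the first array of active line 3 read 6.22 without a detection call. How many of the 119 calls come from the lower floor was not tested. The 8 were Sgip1, Pnrc2, Pcdh12, Cdh19, Arap3, Chek1, Higd1b and Sytl3. Chek1, a kinase of the DNA damage checkpoint, read 5.79 and 5.54 against 6.34 to 7.22, and Cdh19, a cadherin of neural crest cells, read 5.78 and 5.91 against 7.04 to 8.36.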

How the data were processed

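The authors deposited a linear bead intensity per array and probe with a detection fraction between 0 and 1, per the file headers, and a second table of log2 values for the same arrays. BeadStudio 3.1.7 and lumi are named in the submitters' processing notes. How the deposited log2 values were background-corrected and normalized is not given in the sources at hand. Their scale is log2, they are not centred per gene, and they served as an alternative. Slides and hybridisation dates are not given, so a batch cannot be told apart from a line.

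With limma 3.58.1 in R 4.3.3 the raw intensities were background-corrected by detection p (1 minus the deposited fraction), with an offset of 16, quantile-normalized and put on the log2 scale (neqc). Because of the offset, folds of dim genes are understated. Probes entered when detected (p under 0.01) on both arrays of at least 1 line. Of 46632 probes 29976 had exactly 1 gene symbol in the platform annotation, 10 had several and 16646 were left unnamed. By Entrez identifier 29921 were found in a RefSeq table (GRCm38.p6) and 0 symbols changed. Each gene was represented by its brightest kept probe on average, and 1964 genes had more than 1 kept probe.

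Arrays were averaged per line, since the line is the unit that varies. Wild-type line 2 was set against the 5 others with lmFit and eBayes, two-sided, with 4 residual degrees of freedom and a prior of 2.05. The test was checked on simulated data drawn around the mean and spread of the other lines. No detection filter was applied to the simulated data. The check therefore does not cover genes that entered through the line's own detection. For a gene undetected on the dim side the fold is a bound, taken from the bright mean and, on each dim array, the larger of the probe's signal and the dimmest detected signal. The number of lines and arrays limits the precision. Gene lists (44, and 2 on MHC class II with macrophage genes and on imprinted genes) are described by counts and medians without a set test. The members and lists were chosen with earlier results of these data known. Genes named are Stat3, the 12 with the largest differences or gaps in each direction among called and set apart genes, the 12 brightest genes detected in the line alone, those undetected in it alone, and up to 4 per list by absolute difference; a few others are named to complete a count or a pathway and were chosen after their values were seen. Alternatives covered the scaling, background, offset, filter, probe rule, model and each left-out line or array. Promoter sequences came from RefSeq and matched 65 of the 95 set apart genes. Figures were drawn with matplotlib 3.10.9.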

Additional observations from a re-analysis of the deposited data

Results flagged for a closer look

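Stat3 and the leading genes called, set apart, or detected or undetected in the line alone were checked for an outlying line. Among the 5 other lines, 1 line far from the rest was sought by Dixon's ratio (gap to the nearest line over the whole range, critical value 0.71). Chance passes it in about 1 in 20 groups, a rate that need not hold for genes chosen by their values. Of 34 genes checked 5 passed. Active line 3 was the outlying line for Mmp13 (ratio 0.96, with 5.50 against 4.85 in the nearest line), Rgs4 (0.798, with 5.54 against 4.98) and Plekhs1 (0.729, with 11.34 against 10.69), and it lay highest of the 5 in each. Active line 1 was lowest for Necap2 (0.749, with 10.21 against 11.22), the direction of wild-type line 2 itself. Active line 2 was lowest for Nrarp (0.74, with 11.22 against 11.45).

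Probes left unnamed here were outside the gene comparison. Of 2594 such probes kept, 19 were set apart higher in wild-type line 2 and 3 lower.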

How the results depend on the processing

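The 89 genes followed here were named largely for the size of their differences on these same arrays, so a kept direction was largely built in. Across 31 alternative settings, 2571 of the 2574 recomputed differences of these genes kept their direction. The exception was Hey1, at -0.13 with median scaling, -0.41 with the genotype as a covariate and between -0.15 (without active line 3) and 0.35 (without wild-type line 1) with 1 line left out. Of the 21 called genes that are named, 5 lost the call when 1 line was left out (Mmp13, Rgs4, Ptx3, Notch4 and Nrarp), 2 when 1 array was left out (Mmp13 and Rgs4) and 7 under other settings (the same 5 with C1qb and H2-Ab1). Filters requiring detection in at least 3 lines, on all arrays or in the 5 other lines removed all of the 21 but Notch4 and Nrarp. Their removal was not counted as a lost call, and 0 genes were called under those filters. Limits follow from the design: the line is 1 culture, 1 line mean is tested against 5, and dim genes rest on detection in the line itself.

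Genes called higher and lower (34 and 1) became 19 and 1 with the deposited log2 values, 0 and 0 when detection in at least 3 lines, on all arrays or in the 5 other lines was required, 51 and 3 with no filter, and 27 and 0 with the genotype as a covariate. With 1 line or array left out they ranged from 21 to 48 and from 0 to 3. Genes set apart higher and lower (79 and 16) became 27 and 4 with the deposited values, 49 and 7 without background correction, 60 and 8 with an offset of 50, 24 and 16 and then 12 and 9 under the stricter detection filters, and 28 and 16 with the filter on the other lines, and ranged from 74 to 128 and from 12 to 26 with 1 line or array left out. The counts above and below all other arrays (630 and 620) became 179 and 646 with median scaling, 984 and 876 with no filter and 885 and 1053 over all kept probes, and ranged from 638 to 1079 and from 635 to 1119. The filter on the 5 other lines and the use of all kept probes were chosen after seeing the data.

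When arrays of 1 line gave the residual, 1585 genes were called higher and 1581 lower, and with the replicate number as a block 1545 and 1537. The numbers do not pair the samples: over 15 pairs of lines the deviations of same-numbered arrays correlated between -0.228 and 0.295, and 2 were over 0.1.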

Other observations

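Imprinted genes, which are expressed from 1 parental allele, were listed after Igf2 and Grb10 had been seen. Of 27 on the array 13 were tested. Beside the 7.95% and 7.82% of all genes, 4 had both arrays of wild-type line 2 above all others while 0 had both below. Beside Igf2 and Grb10 these were Mest, which read 11.26 and 10.95 against line means of 5.42, 9.36, 6.87, 8.24 and 10.01, and Cdkn1c, a cell cycle inhibitor, which read 7.05 and 7.17 against 5.82 to 6.29. Without the genes that entered through the line, Igf2 and Cdkn1c among them, 2 of 10 lay above, beside 6.74% of all genes. The list median was 0.02, and Gnas, Snrpn, Igf2r and Ube3a were not among the 4. Mest differed by 3.13 ± 1.66 (SE) and did not pass (limma adjusted p = 0.865).

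Some of the 94 set apart genes that could be placed in the RefSeq gene order lay close together on a chromosome. Acta2 and Fas are neighbours with 0 protein-coding genes between them, and differed by 5.49 and 1.92. Arap3 and Pcdh12, both undetected in the line, have 2 protein-coding genes between them, which differed by -0.62 and -0.48. Notch4 and H2-Ab1 have 8 genes between them, of which 0 were tested. Thy1 and Mcam have 4 between them, of which the 2 tested differed by 0.06 and 0.70. Other such pairs differed in opposite directions: Dnajc6 and Sgip1, with 10 protein-coding genes between them, by 2.59 and -3.93, and Pnrc2 and Id3, with 8 between them, by -2.59 and 1.95. These are descriptions of order, and no test of closeness was made.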
